A study of Rattus norvegicus with 6 samples.

Results

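The connexins and pannexin 1, proteins that form channels in the plasma membrane, were followed in synovial fibroblast-like cells grown in 3 different sera. They were chosen by name, with earlier results of these data known, Gjb2 among them: Gjb2, Gjb5, Gjb6, Gja1, Gja4, Gja5, Gjc1 and Panx1. Of the 8 genes, 7 had a row among the 17221 transcript rows, 1 row each, and 5 passed the filter on low values (both libraries of at least 1 serum at 1 CPM or more; CPM is a read count scaled to library size) that left 9820 rows for testing. Gjc1 was not analysed here. The filter kept Gjb2, Gja1, Gja4, Gja5 and Panx1, and left out Gjb5 and Gjb6.

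The cells were adherent cells of the joint lining of female Wistar rats with collagen-induced arthritis, taken before any therapy, and poly(A)-selected RNA was sequenced. Cells of 2 rats were each divided over 3 serological settings, so that the 6 libraries comprised 2 per setting, 1 from each rat. FBS stands for medium with fetal bovine serum, and MS− for serum of untreated animals, drawn before therapy began according to the study. MS+ stands for serum of arthritic animals after 18 days of needle stimulation, which the labels call acupuncture. All 6 libraries came from cells of arthritic donors, and the replicate is the rat that gave the cells, since the labels do not say how many animals gave each serum. One label field calls the MS− animals healthy, while the study describes them as untreated with induced arthritis, so the state of the MS− serum donors is uncertain. No gene was altered in these rats.

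Connexins assemble into hexamers called hemichannels, and hemichannels of adjoining cells dock into gap junctions, through which ions and small signalling molecules pass directly from cell to cell. Undocked hemichannels and pannexin channels open to the outside and release ATP and other small molecules. Connexin 43, encoded by Gja1, is the connexin best known from fibroblasts, bone and synovium, whereas Gjb2, Gjb5 and Gjb6 are best known from epithelia such as the epidermis and the inner ear, and Gja4 and Gja5 from the vascular wall and heart.

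Upstream sequences are shown for 3 of these genes because Gjb2 and Gjb6 are neighbours in the genome, of which Gjb2 was read in every library and Gjb6 in none, and Gja1, the connexin best known from fibroblasts, serves as a comparison. In the deposited rn4 coordinates Gjb2 (NM_001004099) lies on the minus strand of chromosome 15 from 36153527 to 36159490, and Gjb6 (NM_053388) from 36177736 to 36186513 on the same strand, 18245 bases away. Gja1 (NM_012567) lies on the plus strand of chromosome 20 from 35409815 to 35422259. The sequences are the 250 bases before the annotated start in RefSeq of the newer assembly GRCr8, read 5′ to 3′ on the strand of the gene. Capitals mark a GC box (GGGCGG), an AP-1 site (TGANTCA) or a TTAAAA run, each searched on both strands. In Gja1 the capitals of the TTAAAA run cover matches on both strands that overlap each other.
Gjb2 (chr15:35381954-35382203, minus strand): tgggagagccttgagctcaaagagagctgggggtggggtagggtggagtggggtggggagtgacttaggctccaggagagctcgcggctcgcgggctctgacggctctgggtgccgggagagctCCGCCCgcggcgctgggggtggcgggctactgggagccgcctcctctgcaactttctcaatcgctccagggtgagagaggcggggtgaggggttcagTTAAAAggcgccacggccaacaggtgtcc
Gjb6 (chr15:35410139-35410388, minus strand, the first of 2 annotated starts): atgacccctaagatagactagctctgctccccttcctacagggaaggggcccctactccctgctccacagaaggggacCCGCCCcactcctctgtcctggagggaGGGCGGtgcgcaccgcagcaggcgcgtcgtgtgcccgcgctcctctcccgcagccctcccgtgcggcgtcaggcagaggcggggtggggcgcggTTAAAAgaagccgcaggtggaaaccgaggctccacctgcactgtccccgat
Gja1 (chr20:36302314-36302563, plus strand): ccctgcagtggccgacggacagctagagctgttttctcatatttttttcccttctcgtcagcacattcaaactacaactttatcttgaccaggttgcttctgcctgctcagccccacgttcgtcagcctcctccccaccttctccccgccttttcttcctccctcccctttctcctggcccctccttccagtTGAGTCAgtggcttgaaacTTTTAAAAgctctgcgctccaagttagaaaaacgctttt

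The windows of Gjb2 and of the first Gjb6 start were alike in composition, at 67.2% and 68% G or C. The median was 51.2% over the 33469 RefSeq windows of the same length. The window of the second Gjb6 start, which held no TTAAAA run, and the Gja1 window both stood at that median. Of the 33469 windows, 30.5% held a GC box, 6.34% an AP-1 site, 12.9% a TATA box (TATAAA) and 19.0% a TTAAAA run. RefSeq windows were matched for 6 members. A GC box was found for Gjb2, Gjb6, Gja4, Gja5 and Panx1 and not for Gja1, and the AP-1 site was found for Gja1 alone, 58 bases before the start. A TTAAAA run, a motif added after the windows had been read, lay 29 bases before the Gjb2 start, 51 bases before the first Gjb6 start, 37 bases before the Gja1 start and 57 bases before the Gja5 start. A TATA box was found for Gja5, 178 bases before the start. These letters describe the windows and were tied to no binding.

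**Figure D1:**
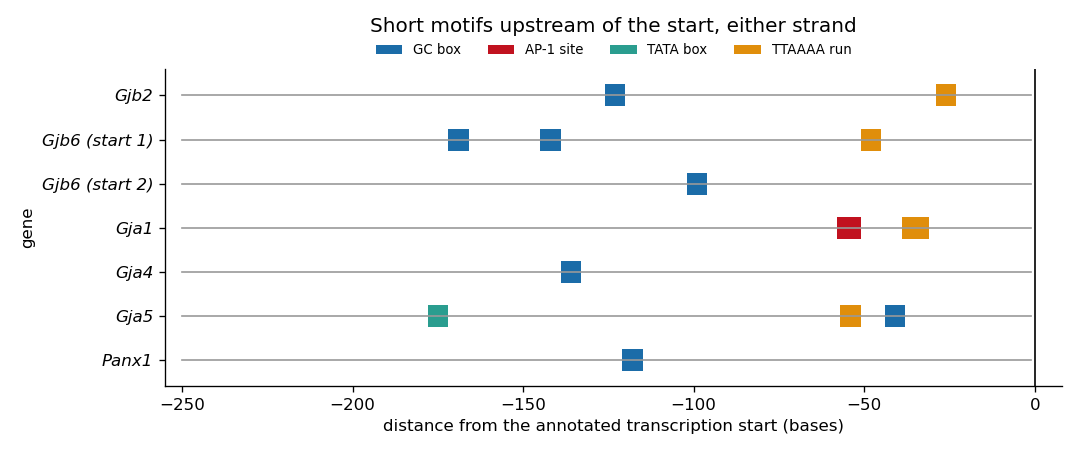
Positions of 4 short motifs (GC box, AP-1 site, TATA box, TTAAAA run; either strand) in the 250 bases before each annotated start, for 6 genes with 7 starts; the x axis is the distance from the start in bases. The upstream windows of Gjb2, Gjb6, Gja4, Gja5 and Panx1 hold a GC box, and that of Gja1 holds the AP-1 site and no GC box.

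Library depth was 5463316 to 5991889 reads, so that 3 reads, taken as the floor of detection, corresponded to 0.491 to 0.551 CPM. Poisson intervals and floors cover counting error only, as PCR copies carried no molecular identifiers. The cells carried fibroblast transcripts: all 11 fibroblast markers were tested, their summed level was 88702 to 115532 CPM, and Col1a1 and Fn1 took the most reads, while Prg4, a lubricin gene of the joint lining, was at 1.27 to 3.32 CPM. The epithelial markers summed to 0.183 to 1.49 CPM over the 8 of 11 genes with a row, with Krt14, Krt18, Krt19, Epcam and Cdh1 at 0 reads in every library and Krt8 and Ocln taking most of the rest. The endothelial markers summed to 0.181 to 1.47 CPM over 6 of 8 genes, with Cdh5, Tie1, Emcn and Cldn5 at 0 reads and nearly all reads in Tek, and Pecam1 had 1 read. The macrophage markers summed to 13.8 to 20.5 CPM over 9 genes, nearly all of it Cd14 with a little Cd68, with Adgre1, Cd163, Ptprc, Lyz2, Aif1 and Itgam at 0 reads. The smooth muscle and pericyte markers, which cultured fibroblasts share in part, summed to 991 to 1426 CPM over 5 of 6 genes, led by Myh11 and Cnn1, with Rgs5 at 0 reads.

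Gjb2 encodes connexin 26, which joins epithelial and inner ear supporting cells. It measured 11.6 CPM in FBS rat 1 and 11.1 CPM in FBS rat 2, from 71 and 67 reads. In MS− it measured 14.1 CPM in rat 1 and 23.3 CPM in rat 2, from 77 and 129 reads. In MS+ it reached 37.1 CPM in rat 1 and 111 CPM in rat 2, from 206 and 604 reads. Both MS+ libraries lay above the other 4, and both MS− libraries above both FBS libraries. The exact 95% Poisson interval of the lower MS+ library, 32.2 to 42.5 CPM, did not reach that of the higher MS− library, 19.5 to 27.7 CPM. The interval of MS− rat 1, 11.1 to 17.6 CPM, overlapped those of both FBS libraries. These were 9.08 to 14.7 CPM in rat 1 and 8.61 to 14.1 CPM in rat 2, below that of MS− rat 2. The levels thus ran from FBS (11.4 ± 0.36 CPM, SD, n = 2) through MS− (18.7 ± 6.53 CPM) to MS+ (74.0 ± 52.1 CPM).

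Within each rat the rise was present but unequal. The MS+ level was 2.63 times the MS− level in rat 1 and 4.75 times in rat 2. Against FBS it was 3.19 times in rat 1 and 9.98 times in rat 2. The cells of the 2 rats had almost the same Gjb2 level in FBS, with a difference of -0.060 for rat 2 minus rat 1 on the log2(CPM + 1) scale, and they differed by 0.69 in MS− and by 1.55 in MS+. With 1 library per rat and serum the difference between the rats in their response was not tested.

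Gja1 encodes connexin 43. It measured 166 CPM in FBS rat 1 and 252 CPM in FBS rat 2, 118 CPM and 241 CPM in MS−, and 198 CPM and 346 CPM in MS+. The 3 sera overlapped, because rat 2 stood above rat 1 in each of them, and within each rat the order was MS−, FBS, MS+. The MS+ level was 1.68 times the MS− level in rat 1 and 1.44 times in rat 2. By reads these were 644 against 1097 in rat 1 and 1333 against 1887 in rat 2, and in each rat the exact Poisson intervals of the 2 libraries did not touch, at 109 to 127 CPM against 186 to 210 CPM in rat 1 and 228 to 254 CPM against 331 to 362 CPM in rat 2.

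Gja5 (NM_019280, chromosome 2, 191824118 to 191843867, plus strand) encodes connexin 40, known from arterial endothelium and the cardiac atria. Gja4 (NM_021654, chromosome 5, 146755061 to 146757594, minus strand) encodes connexin 37, known from endothelium and the oocyte. Both were detected in every library. Gja5 measured 10.1 and 5.14 CPM in FBS, 23.0 and 4.88 CPM in MS−, and 14.4 and 5.32 CPM in MS+, rat 1 before rat 2. Rat 1 was above rat 2 in each serum, and rat 2 stayed within 4.88 to 5.32 CPM whatever the serum. Gja4 measured 5.73 and 4.81 CPM in FBS, 2.74 and 5.60 CPM in MS−, and 3.42 and 6.06 CPM in MS+, with the sera overlapping. Gja4 rested on 15 to 35 reads per library.

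Panx1 (NM_199397, chromosome 8, 11809752 to 11849392, minus strand) encodes pannexin 1, a channel that releases ATP. It measured 5.89 and 2.65 CPM in FBS, 4.39 and 0.904 CPM in MS−, and 4.32 and 2.39 CPM in MS+, rat 1 before rat 2. Rat 1 was above rat 2 in each serum, and the lowest library, MS− rat 2, held 5 reads.

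Gjb5 (NM_019241, a connexin of the epidermis; chromosome 5, 146802849 to 146803664, minus strand) had 1 read in each MS+ library, 0.180 and 0.184 CPM, and 0 reads in the other 4. Gjb6 (connexin 30, the inner ear partner of connexin 26) had 0 reads in all 6 libraries, where the floor of 3 reads stands at 0.491 to 0.551 CPM. The exact 95% Poisson upper limit for 0 reads of Gjb6 was 0.604 to 0.677 CPM. Neither gene was detectable at this depth, and no fold is given for them. In FBS, MS− and MS+ alike, Gjb6 thus stayed below the floor while Gjb2, 18245 bases away, was read 67 to 604 times per library.

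**Figure D2:**
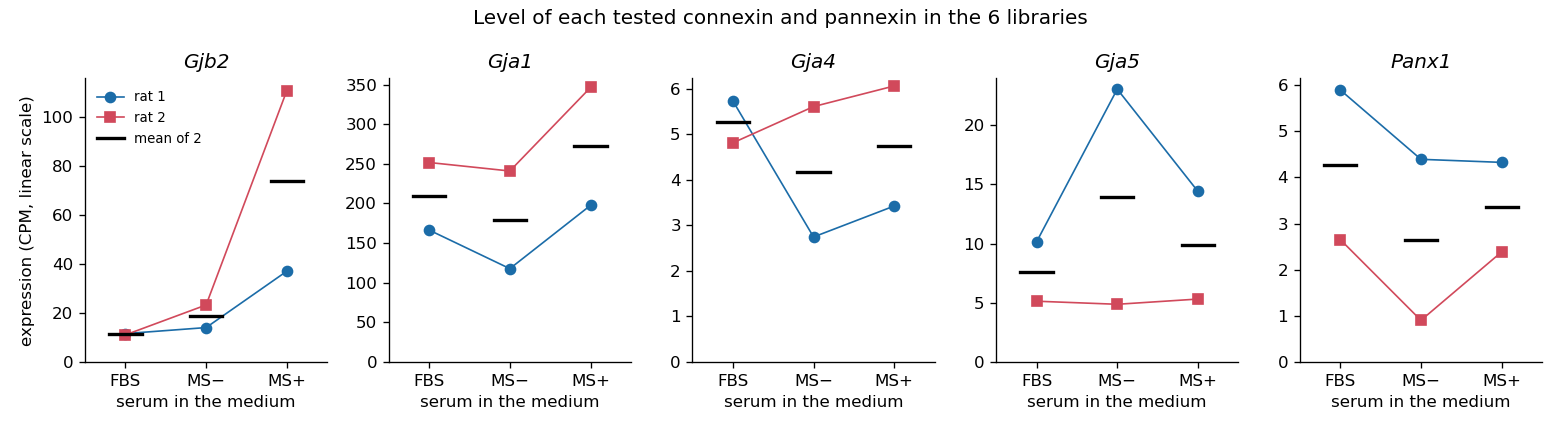
Expression in CPM (linear y axis from 0, a separate scale for each gene) of the 5 tested genes in FBS, MS− and MS+; points are libraries, joined within rat 1 (circles) and rat 2 (squares), and black bars are the means of 2. Gjb2 rises to 37.1 and 111 CPM in MS+, Gja1 is higher in rat 2 than in rat 1 in each serum, and Gja5 and Panx1 are higher in rat 1 in each serum.

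MS+ was first compared with MS−, which sets serum of stimulated animals at day 18 beside serum drawn before therapy. Stimulation and the later time of sampling cannot be told apart in this comparison. Arthritis of the serum donors, uncertain for MS−, cannot be told apart from them either. Nor can differences between the particular sera, as the number of animals behind each is not stated. Limma was fitted over all 9820 rows, once with the setting alone and once with the rat added as a block. Values with the block stand beside a result where they change it, since each setting holds cells of the same 2 animals. Without the block, 0 of the 5 tested members passed an adjusted p of 0.05, where 0.0204% of all tested rows (2 of 9820) did; with edgeR on the recovered reads, DESeq2 and limma-voom the count was also 0. At an unadjusted p under 0.05 in limma there was 1 member, Gjb2, where 1446 of the 9820 rows were under it. The thresholds of the study (a change of at least 2-fold at an unadjusted p under 0.05, with a mean of 1 CPM or more), here applied to the same limma fit, called Gjb2 alone, against 1.24% of all rows. With the block, 2 of the 5 members rose, Gjb2 and Gja1, against 10.1% of all rows called in either direction. The median of the 5 log2 fold changes was 0.41, and that of all rows -0.0058.

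Gjb2 differed between MS+ and MS− by 1.77 on the log2(CPM + 1) scale (SE 0.47, 95% interval 0.64 to 2.90). Its adjusted p of 0.195 became 0.000406 with the block. The block assumes the same difference between the rats in each serum, whereas that of Gjb2 ran from -0.060 in FBS to 1.55 in MS+. The blocked SE of Gjb2, 0.25 at 15.4 degrees of freedom, draws largely on the spread of other rows. Its blocked p in MS+ against FBS has the same limit. Gja1 differed by 0.63 (SE 0.40, interval -0.31 to 1.57) and had an adjusted p of 0.526, or 0.000885 with the block. The standard error of Gja1 was 0.10 with the block, since most of its spread lay between the rats. Leaving out 1 library at a time moved the Gja1 difference from 0.12 (without MS− rat 1) to 1.14 (without MS− rat 2). Leaving out MS+ rat 2 lowered the Gjb2 difference to 0.99, and without that library the thresholds of the study called no member.

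The vascular connexins and pannexin 1 gave smaller values in this comparison. Gja4 differed by 0.17 (interval -0.66 to 1.00), Gja5 by -0.27 (-1.95 to 1.41) and Panx1 by 0.41 (-0.90 to 1.71), with adjusted p from 0.788 to 0.907. With the block the adjusted p of these 3 genes ran from 0.384 to 0.758. Without the block each of the 3 intervals reached a doubling in at least 1 direction, so a change of that size was not excluded with 2 libraries per serum.

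The comparison of MS+ with FBS called 1 of the 5 members, Gjb2, where 9.61% of all tested rows passed the adjusted threshold. The thresholds of the study also called Gjb2 alone, against 5.3% of all rows. With the block, 2 members rose, Gjb2 and Gja1, against 28.2% of all rows called in either direction. Gjb2 rose by 2.40 (SE 0.47, interval 1.27 to 3.53) at an adjusted p of 0.0280, or 3.91e-06 with the block. The unblocked call was lost without FBS rat 1 (adjusted p 0.120), without FBS rat 2 (0.105) or without MS+ rat 2 (0.0654). The difference itself was 2.43, 2.37 and 1.62 in these fits, and 3.18 without MS+ rat 1. Gja1 differed by 0.35 (interval -0.59 to 1.29), at an adjusted p of 0.610, or 0.0136 with the block. Gja4, Gja5 and Panx1 gave -0.16, 0.25 and -0.24, with adjusted p from 0.807 to 0.851.

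Serum of untreated animals was then set against FBS. None of the 5 members passed the adjusted threshold in limma without the block, where 4.81% of all rows did, and none met the thresholds of the study, against 3.62%. The same count was 0 with edgeR, DESeq2 and limma-voom. No member had an unadjusted p under 0.05 in limma without the block, where 2074 of the 9820 rows did. With the block no member was called by limma either, against 20.5% of all rows. EdgeR with the block called 1, Gja5, where it called 2073 of the 9820 rows. Gjb2 differed by 0.63 (interval -0.50 to 1.76), at an adjusted p of 0.502, or 0.0855 with the block. Gja1 differed by -0.28 (adjusted p 0.744, and 0.0554 with the block). Gja5 differed by 0.52, with an adjusted p of 0.729, of 0.150 with the block and of 0.0304 in edgeR with the block. That value rests on rat 1, where Gja5 went from 10.1 to 23.0 CPM; in rat 2 it went from 5.14 to 4.88 CPM. Panx1 differed by -0.65 (adjusted p 0.554, and 0.108 with the block) and Gja4 by -0.33 (0.646, and 0.431 with the block). MS+ against FBS and MS− against FBS share the FBS libraries, so their values are not independent.

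**Figure D3:**
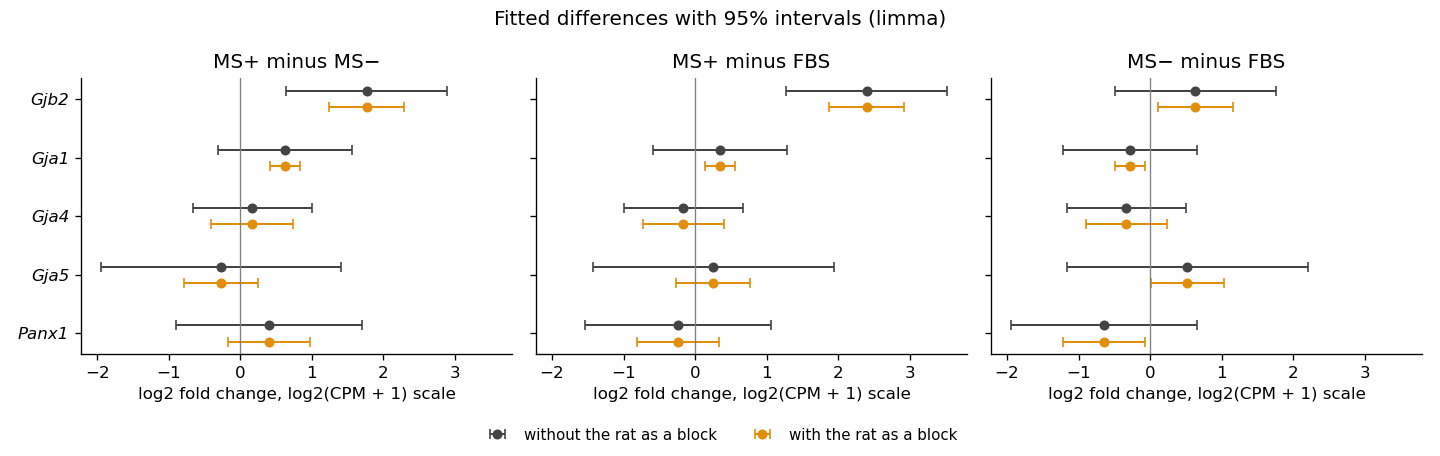
Fitted log2 fold changes (x axis, log2(CPM + 1) scale) of the 5 tested genes in 3 comparisons, with 95% intervals from limma without the rat as a block (dark) and with it (orange). The interval of Gjb2 lies above 0 in MS+ against MS− and against FBS in both fits, while that of Gja1 leaves 0 only with the block.

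The cells of the 2 rats differed in most of these genes whatever the serum. In the fit with the block, the term for rat 2 against rat 1, taken up after the values had been seen, was called for 4 of the 5 members, against 10.5% of all rows. Gja1 was higher in rat 2 by 0.81 (adjusted p 4.05e-06) and Gjb2 by 0.73 (0.0293). Gja5 was lower in rat 2, with a difference of -1.39 (0.000169), and so was Panx1, with -1.02 (0.00578). Gja4 differed by 0.43 (0.269). For Gja1, Gja5 and Panx1 the direction was the same in each of the 3 sera. For Gjb2 it was not: the single value of 0.73 averages -0.060 in FBS, 0.69 in MS− and 1.55 in MS+. The libraries of each rat came from its own cells, divided over the sera. With 1 preparation of cells per rat, a difference between the animals and one between their preparations cannot be told apart.

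**Figure D4:**
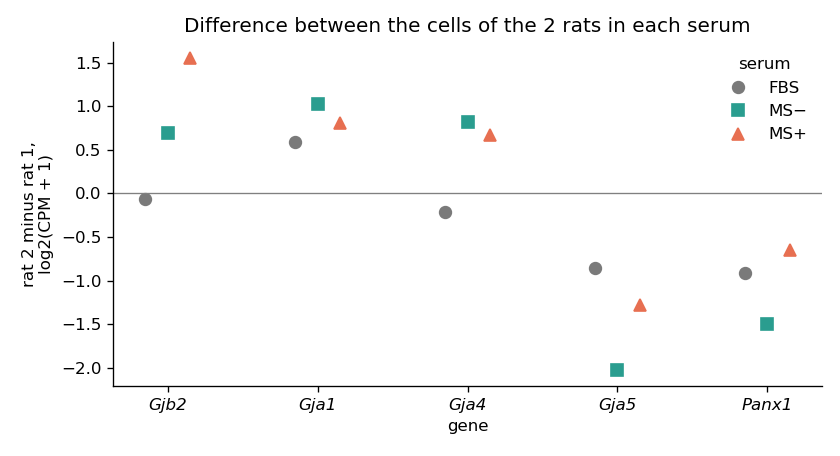
Difference of rat 2 minus rat 1 in log2(CPM + 1) (y axis) for each tested gene, with 1 point for each of FBS, MS− and MS+. Gja1 lies above 0 and Gja5 and Panx1 below 0 in each serum, and the points of Gjb2 run from -0.060 in FBS to 1.55 in MS+.

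Across the 6 libraries, as a description over points that share rats and sera, Gja1 ran with Gja4 (Pearson r 0.73) and against Gja5 (-0.88), Gja4 ran against Gja5 (-0.86), and Gja5 ran with Panx1 (0.72). Gjb2 was less like any of them, with its highest value for Gja1 (0.65). Among all other tested rows, the 5 most like Gjb2 in log2(CPM + 1) were Mip, RGD1305089, Slc5a6, Bcl7b and Cdkn2aip, with r from 0.986 to 0.995. Mip, the lens aquaporin, measured 0.327 and 0.166 CPM in FBS, 0.366 and 0.723 CPM in MS−, and 1.44 and 3.12 CPM in MS+, which rests on few reads. The 5 most like Gja1 were Fxyd1, Exoc3, Uck2, Twist2 and Plau, with r from 0.980 to 0.991. Fxyd1, a regulator of the sodium pump, and Plau, the urokinase gene, were both higher in rat 2 than in rat 1 in each serum, as Gja1 was. Fxyd1 measured 3.77 and 7.30 CPM in FBS, 1.83 and 6.15 CPM in MS−, and 4.50 and 9.36 CPM in MS+.

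Of 16 other connexins and pannexins, 12 had a row, 8 had a read and 3 were tested. Without the block, limma called 0 of these 3 genes in each of the 3 comparisons at the adjusted threshold. Panx3, a pannexin known from cartilage and bone, measured 1.64 and 1.16 CPM in FBS, 2.01 and 4.70 CPM in MS−, and 3.42 and 6.42 CPM in MS+. Both MS+ and both MS− libraries were above both FBS libraries, and Panx3 rested on 7 to 35 reads per library. It met the thresholds of the study in MS+ against FBS at 1.26 (SE 0.39), at an adjusted p of 0.0930, or 0.00534 with the block. Gja3, the lens connexin on chromosome 15, gave 0.38 in MS+ against FBS (adjusted p 0.349). Panx2 had 12 reads over the 6 libraries, and Gja6 and Gjd4 had 1 each. Gja10, Gjb1, Gjd2 and Gje1 were at 0 reads, and Gjb7, Gjc3 and Gjd3 were not analysed here.

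The partners and regulators of gap junction plaques, a list of scaffolds, adherens proteins, kinases and ubiquitin ligases that act on connexin 43, had 29 of 32 genes tested. In MS+ against MS−, 0 of 29 passed the adjusted threshold in limma and 0 met the thresholds of the study; with the block 1 was higher and 3 lower. Over all rows these shares were 0.0204%, 1.24% and 10.1%, so the count with the block was near that of all rows. Cdh11, the cadherin of synovial fibroblasts, was the one that rose (0.38, adjusted p 0.0103 with the block), and Smurf2 and Ywhaq were among those that fell (-0.36 and -0.27). The median over the list was -0.10, beside -0.0058 for all rows.

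Against FBS, MS+ called 1 gene higher and 3 lower of the 29, where 9.61% of all rows were called, with a median of -0.18 beside 0.00078 for all rows. Nov, a secreted protein of the CCN family that binds connexin 43, measured 270 and 763 CPM in FBS, 1506 and 2560 CPM in MS−, and 2007 and 2837 CPM in MS+. All 4 libraries with rat serum lay above both FBS libraries. Nov rose by 2.39 (SE 0.48, adjusted p 0.0295) in MS+ against FBS, and differed by 2.11 in MS− against FBS (adjusted p 0.0610, and 1.44e-07 with the block), where it met the thresholds of the study. Smurf2, a ubiquitin ligase, fell by 0.54 (adjusted p 0.0181), from 145 and 143 CPM to 103 and 94.5 CPM. Ywhaq, a 14-3-3 protein, fell by 0.53 (0.0216) and Prkca, protein kinase C alpha, fell by 0.51 (0.0329). The calls of Smurf2 and Ywhaq were lost when either FBS or either MS+ library was left out, that of Nov without FBS rat 1 or either MS+ library, and that of Prkca without any one of the 6 libraries. Nedd4, the ubiquitin ligase that acts on connexin 43 and took the most reads in the list, gave -0.17 (adjusted p 0.471) in MS+ against FBS. With the block 5 genes of the list were higher and 8 lower in MS+ against FBS, where 28.2% of all rows were called, and 5 higher and 3 lower in MS− against FBS, where 20.5% were; Tjp1, whose product ZO-1 anchors connexin 43 at the plaque edge, rose in both (0.49 and 0.60, adjusted p 0.000898 and 0.000187).

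ATP released through connexin hemichannels, pannexins and other channels acts on P2 receptors, and a list of these genes had 18 of 29 tested. In MS+ against MS−, 0 passed the adjusted threshold in limma and 1 met the thresholds of the study, where 0.0204% and 1.24% of all rows did. This was Slc17a9, the transporter that loads ATP into vesicles, at 1.83 and 5.42 CPM in MS− and 6.13 and 10.5 CPM in MS+. It differed by 1.08 (SE 0.42, adjusted p 0.304, and 0.0117 with the block). Against FBS, MS+ called 2 genes lower and 0 higher, beside 9.61% of all rows, the volume-regulated anion channel subunits Lrrc8c (-1.06, adjusted p 0.0222) and Lrrc8b (-0.64, adjusted p 0.0473). The call of Lrrc8b was lost without any one of the 6 libraries, and that of Lrrc8c without either FBS or either MS+ library. With the block the count was 2 higher and 2 lower, beside 28.2% of all rows. MS− against FBS called 1 gene higher and 0 lower, beside 4.81% of all rows, and 3 higher and 1 lower with the block, beside 20.5%. The gene called without the block was P2rx5, an ATP-gated channel, at 4.42 and 3.81 CPM in FBS and 8.05 and 9.40 CPM in MS−; it rose by 0.93 (adjusted p 0.0466), and the call was lost without any one of the 6 libraries. Enpp1 and Lrrc8a, which took the most reads in the list, had adjusted p of 0.586 or more in each comparison. The medians of the list were -0.15, -0.12 and -0.011 in the 3 comparisons.

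**Figure D5:**
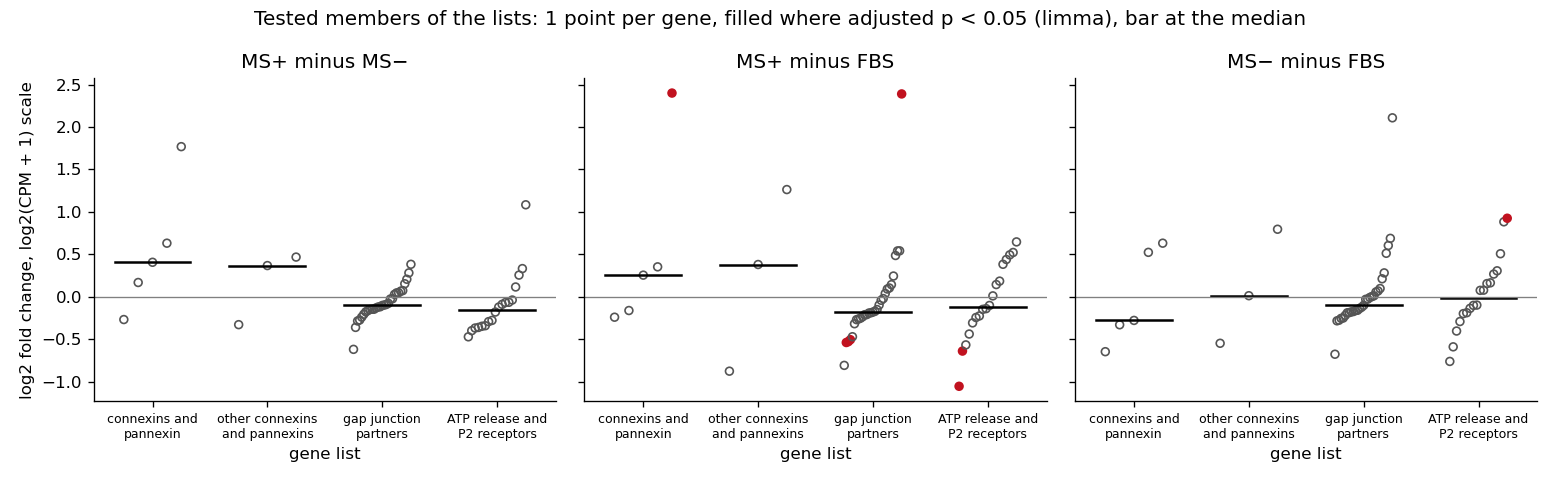
Log2 fold changes (y axis, log2(CPM + 1) scale) of the tested genes of 4 lists in 3 comparisons; each point is a gene, filled red where its adjusted p was under 0.05 in limma without the block, and bars are medians. Gjb2 and Nov are the points at 2.40 and 2.39 in MS+ against FBS.

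In the marker lists 2 genes passed the adjusted threshold without the block, where 9.61% of all rows did in MS+ against FBS and 4.81% in MS− against FBS. With the block the 11 fibroblast markers had 2 higher and 0 lower in MS+ against MS−, 3 higher and 2 lower in MS+ against FBS, and 0 higher and 5 lower in MS− against FBS, beside 10.1%, 28.2% and 20.5% of all rows. Pdpn, podoplanin of the lining layer, fell by 1.21 in MS+ against FBS (adjusted p 0.00555) and by 0.91 in MS− against FBS (adjusted p 0.0139); the former call was lost without MS+ rat 1 and the latter without either FBS or either MS− library. Myh11, smooth muscle myosin, rose by 0.55 in MS+ against FBS (adjusted p 0.0428), a call that was lost without any one of the 6 libraries. The summed epithelial markers were 0.721 and 1.47 CPM in MS+, 0.183 and 1.45 CPM in MS−, and 0.982 and 1.49 CPM in FBS, rat 1 before rat 2. These sums rest on few reads, and their part in the Gjb2 result was not tested. In these bulk libraries, more cells of a type and more RNA per cell cannot be told apart.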

How the data were processed

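Poly(A)-selected RNA of 6 cultures was sequenced by a company for the authors, who aligned reads to the rat genome rn4 with Bowtie2 2.1.0 and counted them per transcript with HTSeq 0.5.4p3; the tool and build names follow the submitters' processing notes and the study's methods. The deposited signal per transcript is TMM-normalized CPM. Strand use was not stated, and reads shared by similar family members are uncertain; none of the 7 member rows overlapped another row. The step between low values gave what 1 read is worth in each library, and 100% of the values were whole reads on that scale, within 1e-06. Depth was 5463316 to 5991889 reads per library.

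The members and gene lists were chosen with earlier results of these data known, and Gjb2 was already known to differ. Rows were kept when both libraries of at least 1 setting reached 1 CPM (9820 of 17221). Limma 3.58.1 (lmFit, eBayes with trend, two-sided; R 4.3.3) was fitted to log2(CPM + 1) of all 6 libraries with the setting as the only term, and p-values were adjusted by Benjamini-Hochberg over all 9820 rows; such fold changes understate changes of low genes. The study applied its thresholds to limma-voom. The design had assumed a CPM unit, and the values are recorded as a normalized signal with the same test.

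Libraries of the same number are paired, as the same 2 rats gave the cells of each setting; differences of rat 2 minus rat 1 correlated across rows by 0.616 between FBS and MS−, 0.494 between FBS and MS+ and 0.590 between MS− and MS+. The libraries of a setting were not copies, at a chi-square per degree of freedom of 13.7 to 15.4. Alternatives were the rat as a block, a pseudocount of 0.1, no low-value filter, other scalings, edgeR 4.0.16 without and with the block, DESeq2 1.42.0, limma-voom and leaving out each library. Another row per member could not be tried, as each had 1 row. The rat term was added after the data were seen. Named genes were the 8 members, other connexins and pannexins with a read (some are not reported here), and from each list those with the most reads and, per comparison, the 2 largest rises and falls with an adjusted p under 0.05 (under the study's thresholds if there was none); Prkca, Prg4, Cdh11 and Tjp1 were named after their values were seen. For Gjb2 and Gja1 the 5 most similar rows by Pearson r were named. Levels are not compared between genes, since transcript lengths were not used. The scripts were tested on simulated data.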

Additional observations from a re-analysis of the deposited data

Results flagged for a closer look

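In 5 of the 15 pairs of gene and comparison the cells of the 2 rats moved in opposite directions; the difference between the rats was not tested, as there was 1 library per rat and serum. Values are on the log2(CPM + 1) scale. Gja4 in MS+ against FBS was -0.61 in rat 1 and 0.28 in rat 2, a gap of 0.886. Gja4 in MS− against FBS was -0.85 in rat 1 and 0.19 in rat 2, a gap of 1.03. Gja5 in MS+ against MS− was -0.64 in rat 1 and 0.10 in rat 2, a gap of 0.746. Gja5 in MS− against FBS was 1.11 in rat 1 and -0.062 in rat 2, a gap of -1.17 for rat 2 minus rat 1. Panx1 in MS+ against MS− was -0.018 in rat 1 and 0.83 in rat 2, a gap of 0.849, with 5 reads in the MS− library of rat 2. Gjb2 and Gja1 moved the same way in both rats in each of the 3 comparisons.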

How the results depend on the processing

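The count of members past the adjusted threshold in MS+ against MS− was 0 without the block and 2 with the rat as a replicate block, both in limma and in edgeR, and 0 in the other alternatives. In MS+ against FBS it was 1 without the block, 2 with the block in limma and in edgeR, 0 without the low-value filter (Gjb2 adjusted p 0.0626) and 0 with limma-voom (0.0562), and 0 to 1 when a library was left out. In MS− against FBS edgeR with the block gave 1 in place of 0. Under the thresholds of the study, leaving out a library gave 0 to 2 members in MS+ against MS− (0 without MS+ rat 2, 2 without MS− rat 2) and 0 to 1 in MS− against FBS. The block changed no other call of a member. Gjb2 kept its direction under all 15 alternatives in each comparison, with values of 0.99 to 2.55, 1.62 to 3.18 and 0.29 to 0.98 in MS+ against MS−, MS+ against FBS and MS− against FBS when 1 library was left out, and Gja1 kept its direction in MS+ against MS−, at 0.12 to 1.14. Signs that turned did so only when 1 library was left out: over those fits Gja1 ran from -0.050 to 0.76 in MS+ against FBS and from -0.79 to 0.23 in MS− against FBS, Gja4 from -0.24 to 0.58, -0.50 to 0.17 and -0.74 to 0.079 in the 3 comparisons, Gja5 from -1.28 to 0.75, -0.39 to 0.90 and -0.49 to 1.54, and Panx1 from -0.34 to 1.16, -0.70 to 0.22 and -1.40 to 0.10. The causes were not tested. DESeq2 gave no adjusted p for Panx1 in MS+ against MS−. With 2 libraries per setting, a p without the block is set against the spread between cells of 2 rats. With the block it is set against how unequally the cells of the 2 rats responded. In both fits limma also draws on the spread of other rows. Depth limits Panx1, Gja4 and the genes under the floor.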
